A study of Rattus norvegicus with 24 samples.

Results

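High-voltage calcium channels were followed through 10 of their subunit genes, each found by its exact gene name in the annotation deposited with the expression table. The members were the pore-forming subunits Cacna1a, Cacna1b, Cacna1c, Cacna1d and Cacna1e, the alpha2delta subunits Cacna2d1, Cacna2d2 and Cacna2d3, and the beta subunits Cacnb3 and Cacnb4. They were set by name, with earlier results of these data known, and made up 10 of the 26641 named loci among 42334 loci in all. The adjusted p-values do not account for that choice. Each name belonged to 1 locus, and all 10 passed the filter on low values in both regions.

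The libraries were messenger RNA sequencing libraries from adult male Sprague-Dawley rats, killed 3 months after surgery. The TBI group (6 rats) had a lateral fluid-percussion injury, in which a pulse of fluid strikes the exposed dura. By the study's methods, sequenced TBI rats had been picked by MRI for signs of inflammation around the lesion, so they are not a random sample of injured rats. The sham group (6 rats) had the anaesthesia and the craniectomy without the impact. Perilesional cortex and ipsilateral thalamus were dissected from 1 coronal slice of each rat, which gave 24 libraries in 4 groups of 6. Each library is 1 rat's piece of mixed tissue.

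A high-voltage calcium channel opens on strong depolarisation and lets calcium into the neuron. The pore and voltage sensor lie in the alpha1 subunit. P/Q-type (Cacna1a) and N-type (Cacna1b) channels trigger transmitter release at most presynaptic terminals, L-type channels (Cacna1c, Cacna1d) couple somatic and dendritic depolarisation to gene transcription, and R-type channels (Cacna1e) carry calcium in dendrites, spines and terminals. Beta subunits bind the pore inside the cell and bring it to the membrane, and the extracellular alpha2delta subunits raise the number of channels at the surface. Cacna2d1 and Cacna2d2 encode the binding proteins of the gabapentinoid drugs.

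Promoter windows of the members were read from RefSeq (GRCr8), in which 9 of the 10 members matched an entry. Shown are those of Cacna1a and Cacna1b, the pores whose levels moved together most closely within groups, and of Cacna1c and Cacna1e, the members with the largest regional difference in each direction. They were chosen after these values were seen. Each window is 300 bases around an annotated transcription start, 5′ to 3′ on the minus strand, on which all 4 genes lie. The windows are chr19:40650419-40650718 for Cacna1a, chr3:27944236-27944535 for Cacna1b, chr4:154051699-154051998 for Cacna1c and chr13:69444761-69445060 for Cacna1e. Capitals mark the GC box, GGGCGG on either strand, and no other motif.
Cacna1a: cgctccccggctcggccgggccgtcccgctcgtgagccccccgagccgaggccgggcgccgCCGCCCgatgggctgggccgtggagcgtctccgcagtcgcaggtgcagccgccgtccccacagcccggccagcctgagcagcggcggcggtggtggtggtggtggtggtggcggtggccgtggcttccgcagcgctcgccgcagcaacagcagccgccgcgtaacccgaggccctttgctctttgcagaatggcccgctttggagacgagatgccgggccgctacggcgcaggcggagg
Cacna1b: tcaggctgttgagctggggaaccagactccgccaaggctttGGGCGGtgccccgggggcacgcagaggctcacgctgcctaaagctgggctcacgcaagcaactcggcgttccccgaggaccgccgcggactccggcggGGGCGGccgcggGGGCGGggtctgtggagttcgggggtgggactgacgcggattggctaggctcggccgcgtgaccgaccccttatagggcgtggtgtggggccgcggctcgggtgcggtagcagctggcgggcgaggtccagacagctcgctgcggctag
Cacna1c: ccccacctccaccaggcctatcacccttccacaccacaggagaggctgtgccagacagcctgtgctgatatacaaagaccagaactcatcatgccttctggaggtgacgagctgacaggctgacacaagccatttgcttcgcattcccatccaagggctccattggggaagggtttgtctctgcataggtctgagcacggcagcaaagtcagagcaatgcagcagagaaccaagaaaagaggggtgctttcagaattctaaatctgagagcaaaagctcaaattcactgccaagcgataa
Cacna1e: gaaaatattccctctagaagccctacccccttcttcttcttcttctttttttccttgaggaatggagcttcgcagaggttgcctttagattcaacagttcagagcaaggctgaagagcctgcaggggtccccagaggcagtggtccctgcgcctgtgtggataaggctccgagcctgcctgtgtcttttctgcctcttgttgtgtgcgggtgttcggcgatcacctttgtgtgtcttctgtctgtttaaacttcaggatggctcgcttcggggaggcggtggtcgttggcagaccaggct

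The Cacna1a window held 1 GC box and the Cacna1b window 3, with 76% and 72% G or C. The windows of Cacna1c and Cacna1e held 0, with 51.7% and 53.7% G or C. The other matched members each had at least 2 GC boxes in a window. Cacna1d had the most, 8 when counted without overlap, in a window of 88.7% G or C. Over all 33469 RefSeq promoter windows of this length, 33.1% held a GC box and the median was 51.7% G or C. Neither the cAMP response element TGACGTCA (1.83% of all windows) nor the TATA box letters TATAAA (14.2%) occurred in any matched member's window. These matches describe letters in a window.

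Values are normalized counts, which are fragments per locus divided by a size factor of the library. Depth ran from 30568927 to 54608922 fragments per library, and no member fell under 1121 fragments in any library. In cortex and thalamus separately, limma compared the 6 TBI with the 6 sham rats across all named loci above the filter, on log2 values after adding 1. A change was called at a Benjamini-Hochberg adjusted p under 0.05. Identity genes separated the regions in every library: the summed cortex markers ran from 57104 to 70614 in cortex and from 5158 to 13914 in thalamus. The summed thalamus markers were lower after TBI, 55533 to 68004 in TBI against 74918 to 104316 in sham thalamus with no overlap. In TBI thalamus 5 of 6 were called lower, beside 20.9% of all tested loci. In the cortex 3 of 7 cortex markers were called lower, beside 14.9% of all tested loci. The sums of the cortex markers there were 57104 to 65220 in TBI and 64011 to 70614 in sham rats. The part of this shift in the members' changes was not tested.

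Choroid plexus transcripts varied widely. Their summed level in the thalamus was 269420 normalized counts in TBI rat 45, 110362 in sham rat 50 and 69925 in sham rat 34, and 533 to 1896 in the other 9 libraries. In the cortex it was 33608 in TBI rat 45, 24360 in sham rat 26 and 11654 in sham rat 34, and 919 to 3074 in the other 9. Results that rest on TBI rat 45 are also given without it, and all comparisons were repeated without these 6 libraries, a choice made after seeing the data. Leaving them out takes 3 libraries from each region, more from sham than from TBI rats. Where a call is lost in those fits, smaller groups and choroid plexus content cannot be told apart.

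Of the 10 members, 4 were lower in the cortex of TBI rats and 7 in the thalamus, and 0 were higher in either region. In the cortex these were Cacna1a, Cacna2d1, Cacna2d3 and Cacnb4. In the thalamus the same 4 were lower, together with Cacna1b, Cacna1c and Cacna1d. Among all tested loci, 14.9% were called lower and 14.3% higher in the cortex, against 20.9% lower and 14.5% higher in the thalamus. The median log2 change of the members was -0.15 in the cortex and -0.31 in the thalamus, beside -0.0096 and -0.023 over all loci tested. Every called change was smaller than 1.5-fold. Without the 6 libraries high in choroid plexus, 3 members were called lower in the cortex (6.06% of all loci) and 5 in the thalamus (15.3% of all loci), and 0 were higher.

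**Figure D1:**
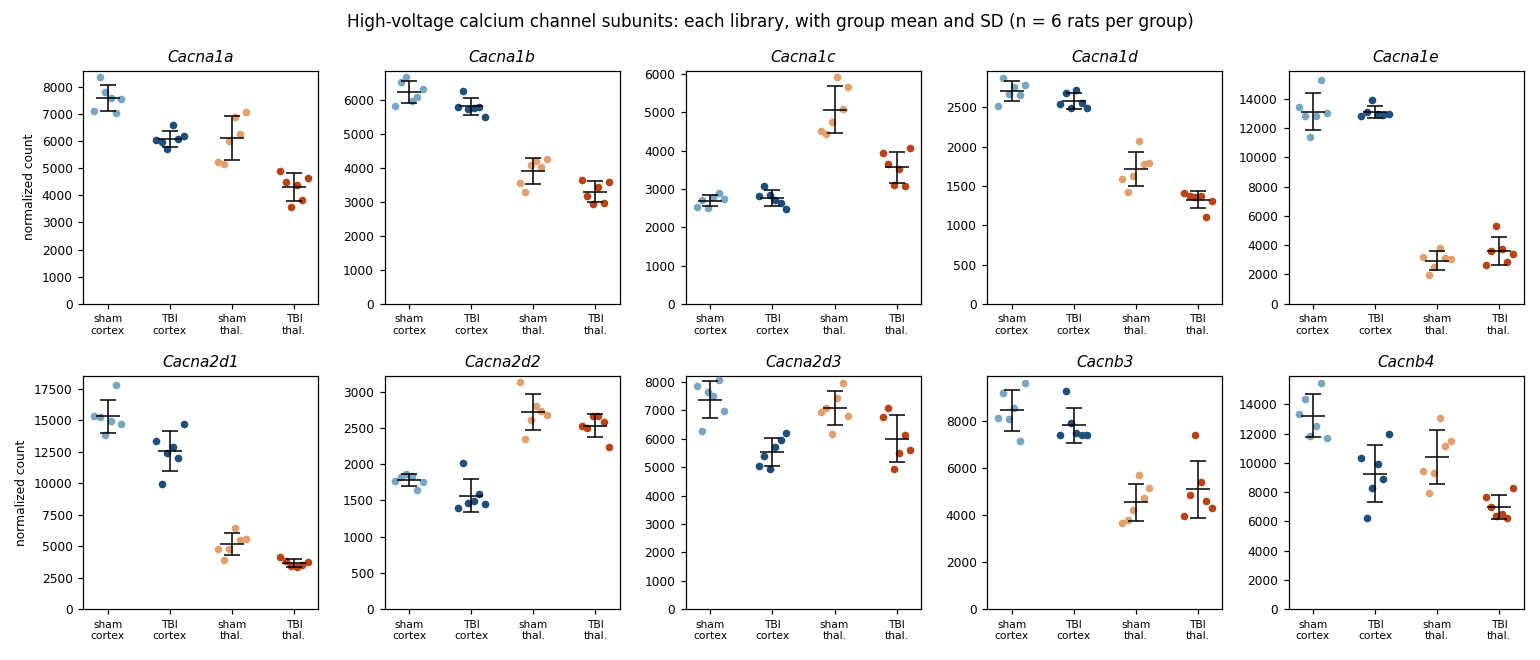
Normalized counts of the 10 members in each of the 24 libraries, with one point per rat and bars for the group mean and SD (n = 6). Cacna1a lay lower in all TBI rats than in all sham rats in both regions, and Cacna1e showed the largest gap between cortex and thalamus.

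Cacna1a, the P/Q-type pore, separated TBI from sham rats in both regions. In the cortex it ranged from 5699 to 6581 normalized counts in TBI rats (median 6063) and from 7044 to 8359 in sham rats (median 7574). In the thalamus it ranged from 3588 to 4917 in TBI rats (median 4442) and from 5174 to 7087 in sham rats (median 6149). The groups did not overlap in either region. The fall was 1.24-fold in the cortex (log2 -0.31 ± 0.05 SE, limma adjusted p = 0.000372) and 1.42-fold in the thalamus (log2 -0.50 ± 0.09 SE, limma adjusted p = 0.0009). It did not differ detectably between the regions (interaction log2 -0.19 ± 0.11 SE, limma adjusted p = 0.326).

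Cacna1b, the N-type pore, changed less. Its cortical values were 5521 to 6280 in TBI rats (median 5791) and 5843 to 6688 in sham rats (median 6221), with 5 of 6 TBI rats below every sham rat. That difference was not called (log2 -0.10 ± 0.05 SE, limma adjusted p = 0.107). In the thalamus the values were 2942 to 3666 in TBI rats (median 3316) and 3308 to 4277 in sham rats (median 4057), and the groups overlapped. The thalamic fall was 1.18-fold (log2 -0.24 ± 0.08 SE, limma adjusted p = 0.0215). It was lost without sham thalamus replicate 55 (log2 -0.21, limma adjusted p = 0.0551) and without the libraries high in choroid plexus (log2 -0.18, limma adjusted p = 0.15).

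Cacna1c, the main L-type pore of the brain, fell in the thalamus while its cortical level stayed close to sham. Thalamic values were 3076 to 4074 in TBI rats (median 3590) and 4433 to 5916 in sham rats (median 4926), with no overlap. This was a 1.42-fold fall (log2 -0.51 ± 0.09 SE, limma adjusted p = 0.000535). Cortical values were 2480 to 3089 in TBI rats (median 2761) and 2501 to 2893 in sham rats (median 2735), a log2 difference of 0.03 ± 0.06 SE (limma adjusted p = 0.699). The TBI effect differed between thalamus and cortex by log2 -0.54 ± 0.11 SE (limma adjusted p = 0.00305), so Cacna1c was the 1 member called in the interaction. Without the 6 libraries high in choroid plexus it was log2 -0.46 ± 0.13 SE and missed the threshold (limma adjusted p = 0.0619). Over all loci 4.54% had a lower and 2.72% a higher effect in the thalamus. The Cacna1c locus shares its listed span with Dcp1b. Cacna2d3 shares its listed span with 5 other loci, and Cacna1a and Cacnb4 each share theirs with 1. Whether the counting kept strands apart is not given in the sources used here.

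Cacna1d, the L-type pore that opens at more negative voltages, also fell in the thalamus without overlap. Its thalamic values were 1110 to 1411 in TBI rats (median 1366) and 1428 to 2066 in sham rats (median 1706), a 1.29-fold fall (log2 -0.37 ± 0.08 SE, limma adjusted p = 0.00343). Cortical values were 2494 to 2726 in TBI rats (median 2549) and 2512 to 2877 in sham rats (median 2717), and that difference was not called (log2 -0.07 ± 0.04 SE, limma adjusted p = 0.268). The difference between the regions was log2 -0.30 ± 0.10 SE and just missed the threshold (limma adjusted p = 0.0539). With the rat as a block, which the shared animals allow, it passed (limma adjusted p = 0.0312).

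Cacna1e, the R-type pore, showed no called change. In the cortex it ranged from 12787 to 13937 in TBI rats (median 12970) and from 11355 to 15243 in sham rats (median 12919), a log2 difference of 0.0036 ± 0.06 SE (limma adjusted p = 0.972). In the thalamus it ranged from 2662 to 5342 in TBI rats (median 3507) and from 1962 to 3809 in sham rats (median 3080), a log2 difference of 0.29 ± 0.17 SE (limma adjusted p = 0.211). TBI rat 45 held the highest thalamic value. Without both libraries of that rat, the thalamic difference was log2 0.17 ± 0.15 SE (limma adjusted p = 0.423).

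All 3 alpha2delta genes had lower mean levels after TBI in both regions, and 2 of them were called in each. Cacna2d1 ranged from 9957 to 14724 in TBI cortex (median 12599) against 13840 to 17778 in sham cortex (median 15082). In the thalamus it ranged from 3322 to 4109 in TBI rats (median 3612) against 3917 to 6464 in sham rats (median 5140). In each region 5 of 6 TBI rats lay below every sham rat. The fall was 1.23-fold in the cortex (log2 -0.29 ± 0.08 SE, limma adjusted p = 0.0137) and 1.40-fold in the thalamus (log2 -0.49 ± 0.10 SE, limma adjusted p = 0.00162). Without the libraries high in choroid plexus the cortical difference was log2 -0.32 and just missed the threshold (limma adjusted p = 0.0517).

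Cacna2d3 fell further in the cortex than in the thalamus, although the difference between regions was not called (log2 0.17 ± 0.12 SE, limma adjusted p = 0.401). Cortical values were 4929 to 6209 in TBI rats (median 5543) and 6261 to 8058 in sham rats (median 7578), with no overlap. The cortical fall was 1.33-fold (log2 -0.42 ± 0.07 SE, limma adjusted p = 0.000618). Thalamic values were 4928 to 7101 in TBI rats (median 5860) and 6177 to 7959 in sham rats (median 7019), and the groups overlapped. The thalamic fall (log2 -0.24 ± 0.09 SE, limma adjusted p = 0.0391) was the least stable call, lost in 9 of 12 fits that left out 1 library, without TBI rat 45 (log2 -0.19, limma adjusted p = 0.0768) and without the libraries high in choroid plexus (log2 -0.19, limma adjusted p = 0.0905).

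Cacna2d2 was not called in either region. Cortical values were 1398 to 2009 in TBI rats (median 1478) and 1645 to 1866 in sham rats (median 1789), with 5 TBI rats below every sham rat and TBI rat 24 above all of them. The cortical difference was log2 -0.19 ± 0.08 SE (limma adjusted p = 0.0683). Without TBI cortex replicate 24 it was log2 -0.27 and was called (limma adjusted p = 0.00159). In the thalamus the values were 2241 to 2665 in TBI rats (median 2557) and 2353 to 3126 in sham rats (median 2708), a log2 difference of -0.10 ± 0.06 SE (limma adjusted p = 0.246).

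The beta subunits differed from each other. Cacnb4, whose loss causes ataxia and seizures in the lethargic mouse, had the largest fold change of the members in both regions. It ranged from 6205 to 11974 in TBI cortex (median 9394) against 11716 to 15476 in sham cortex (median 12958), with 5 of 6 TBI rats below every sham rat. In the thalamus it ranged from 6212 to 8256 in TBI rats (median 6754) against 7959 to 13085 in sham rats (median 10301), again with 5 of 6 below. The fall was 1.45-fold in the cortex (log2 -0.54 ± 0.12 SE, limma adjusted p = 0.00512) and 1.47-fold in the thalamus (log2 -0.56 ± 0.11 SE, limma adjusted p = 0.00123).

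Cacnb3 showed no called change. Its cortical values were 7371 to 9262 in TBI rats (median 7437) and 7154 to 9597 in sham rats (median 8320), a log2 difference of -0.11 ± 0.07 SE (limma adjusted p = 0.271). Its thalamic values were 3950 to 7373 in TBI rats (median 4717) and 3648 to 5701 in sham rats (median 4454), a log2 difference of 0.15 ± 0.14 SE (limma adjusted p = 0.437). As for Cacna1e, TBI rat 45 held the highest thalamic value, and without that rat the difference was log2 0.04 ± 0.11 SE (limma adjusted p = 0.83). The files place this locus on chromosome X, from 114718781 to 114997925, in a span shared with 13 other loci, whereas RefSeq places Cacnb3 on chromosome 7 of GRCr8. Its counts are therefore the least certain of the members.

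**Figure D2:**
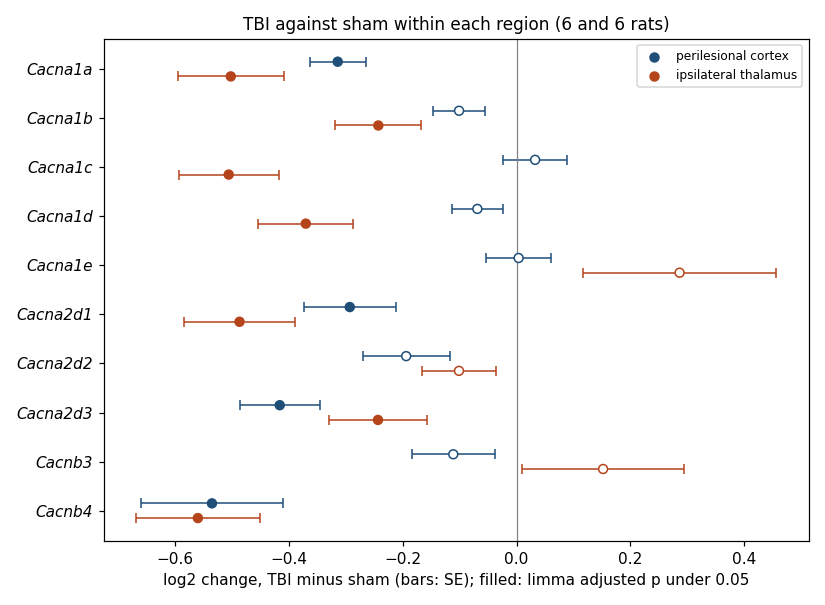
Log2 change of each member (TBI minus sham) in the perilesional cortex and the ipsilateral thalamus, with SE bars and filled points where the limma adjusted p was under 0.05. Filled points lie between -0.24 and -0.56, and Cacna1c stands near 0 in the cortex and at -0.51 in the thalamus.

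Read by separation, TBI rats lay below every sham rat in 2 members in the cortex (Cacna1a, Cacna2d3) and in 3 in the thalamus (Cacna1a, Cacna1c, Cacna1d). Over all tested loci this held for 5.45% in the cortex and 10.7% in the thalamus.

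The members did not move as 1 block from rat to rat. Deviations from the group mean, over the 24 libraries, correlated positively in 35 of the 45 pairs of members, with a median r of 0.27 and a range from -0.48 to 0.92. The closest pair was Cacna2d1 with Cacnb4 (r = 0.92), followed across the pores by Cacna1a with Cacna1b (r = 0.83). TBI cortex replicate 24 shows the first pair: it had the lowest TBI cortex level of both, 9957 for Cacna2d1 and 6205 for Cacnb4. The same library had the highest TBI cortex level of Cacna2d2 (2009) and Cacnb3 (9262). Both genes of a pair share library and depth, and these correlations carry no test.

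Ratios of 2 members within a library do not depend on how libraries were scaled. They compare groups only, since counts were not divided by transcript length. The log2 ratio of Cacna1a to Cacna1b was 0.07 ± 0.10 (SD, n = 6) in TBI cortex and 0.28 ± 0.06 in sham cortex. In the thalamus it was 0.38 ± 0.07 in TBI rats and 0.64 ± 0.08 in sham rats. All 6 TBI rats lay below all 6 sham rats in both regions, so the P/Q-type transcript was lower relative to the N-type transcript.

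The log2 ratio of Cacnb4 to Cacnb3 fell from 1.20 ± 0.10 in sham thalamus to 0.49 ± 0.44 in TBI thalamus (SD, n = 6), with no overlap. That thalamic difference of log2 -0.71 was -0.57 without TBI thalamus replicate 45, and the counts of Cacnb3 are the least certain of the members. In the cortex the ratio was 0.65 ± 0.27 in sham rats and 0.22 ± 0.45 in TBI rats, and the groups overlapped. That cortical difference of log2 -0.42 shrank to -0.26 without TBI cortex replicate 24. Cacna2d1 relative to Cacna2d2 was 0.91 ± 0.22 in sham and 0.53 ± 0.18 in TBI thalamus, with 4 of 6 TBI rats below every sham rat. In the cortex that ratio was 3.10 ± 0.18 in sham and 3.00 ± 0.37 in TBI rats, a difference whose sign depended on TBI cortex replicate 24. The ratio of the L-type pores, Cacna1c to Cacna1d, was 1.56 ± 0.07 in sham and 1.43 ± 0.15 in TBI thalamus, a difference of log2 -0.14 that was -0.089 without TBI thalamus replicate 45. In the cortex it was -0.01 ± 0.08 in sham and 0.09 ± 0.10 in TBI rats. No test was run on ratios.

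**Figure D3:**
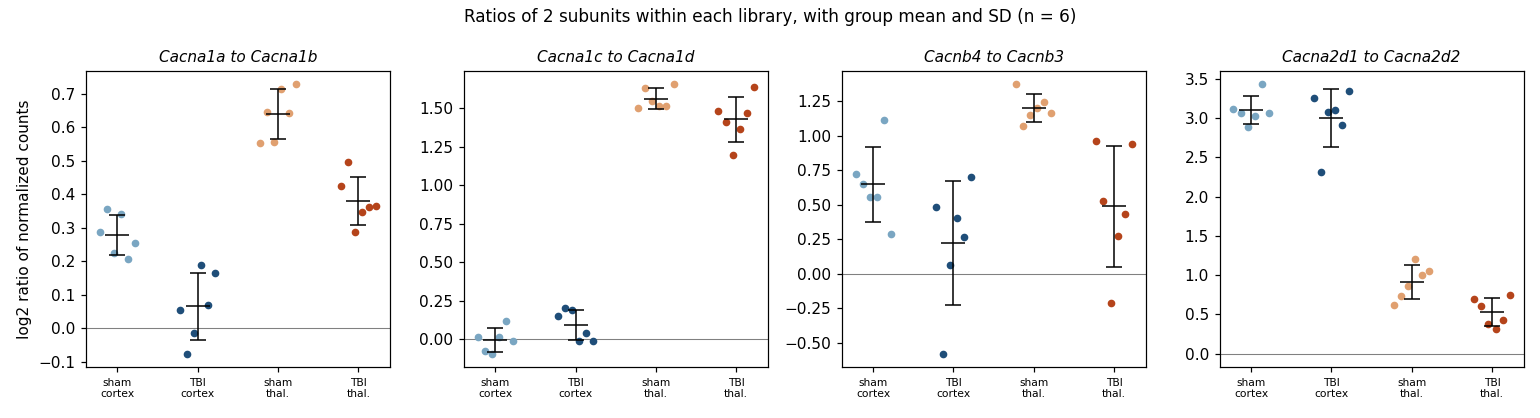
Log2 ratios of normalized counts of 4 pairs of members within each library, with one point per rat and bars for the group mean and SD (n = 6). The Cacna1a to Cacna1b ratio separates TBI from sham in both regions (cortex 0.07 against 0.28, thalamus 0.38 against 0.64).

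Nearly every member also had its own regional level. In sham rats 7 of the 10 were lower and 2 higher in the thalamus than in the cortex, and only Cacna2d3 was not called (log2 -0.06 ± 0.08 SE, limma adjusted p = 0.527). TBI rats gave the same counts, again with Cacna2d3 not called (log2 0.11 ± 0.08 SE, limma adjusted p = 0.251). Over all loci 33.5% were higher and 27.9% lower in the thalamus of sham rats, and 32.7% higher and 27.9% lower in that of TBI rats.

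Cacna1e had the largest regional difference, 4.54-fold lower in sham thalamus (log2 -2.18 ± 0.14 SE, limma adjusted p = 2.53e-13) and 3.73-fold lower in TBI thalamus (log2 -1.90 ± 0.14 SE). Cacna2d1 followed, 2.99-fold lower in sham thalamus (log2 -1.58 ± 0.10 SE, limma adjusted p = 1.45e-13) and 3.42-fold lower in TBI thalamus. Cacnb3 was 1.88-fold, Cacna1b 1.60-fold, Cacna1d 1.59-fold, Cacnb4 1.28-fold and Cacna1a 1.25-fold lower in sham thalamus. The Cacnb4 call in sham rats was lost without sham thalamus replicate 32 (log2 -0.28, limma adjusted p = 0.0548) and without the libraries high in choroid plexus (log2 -0.38, limma adjusted p = 0.0588).

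Cacna1c and Cacna2d2 went the other way. Cacna1c was 1.87-fold higher in sham thalamus (log2 0.90 ± 0.08 SE, limma adjusted p = 1.18e-10) and 1.29-fold higher in TBI thalamus (log2 0.36 ± 0.08 SE, limma adjusted p = 0.000206). The sham ranges did not overlap, while TBI thalamus (3076 to 4074) and TBI cortex (2480 to 3089) overlapped. Cacna2d2 was 1.52-fold higher in sham thalamus (log2 0.61 ± 0.07 SE, limma adjusted p = 6.32e-08) and 1.63-fold higher in TBI thalamus.

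**Figure D4:**
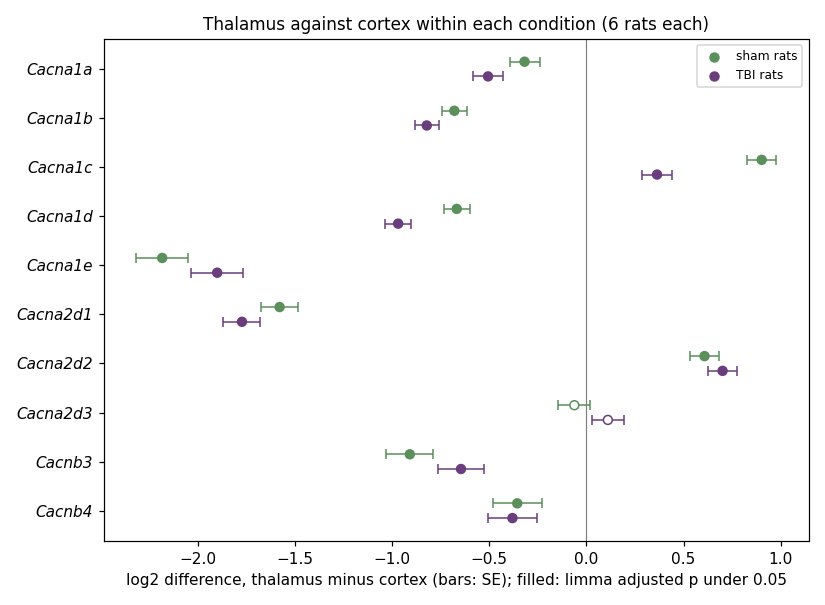
Log2 difference of each member between thalamus and cortex in sham and in TBI rats, with SE bars and filled points where the limma adjusted p was under 0.05. Cacna1e and Cacna2d1 lie far to the cortical side (-2.18 and -1.58 in sham rats), Cacna1c and Cacna2d2 to the thalamic side (0.90 and 0.61).

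The order of the groups by mean level differed among the members. Sham cortex was highest and TBI thalamus lowest for Cacna1a, Cacna1b, Cacna1d, Cacna2d1 and Cacnb4. For Cacna1a the neighbours in that order (7583 in sham cortex, 6115 in sham thalamus, 6093 in TBI cortex) overlapped, and TBI thalamus (4310) stood apart. For Cacna1e and Cacnb3 sham thalamus was lowest, though it overlapped TBI thalamus. For Cacna1c sham thalamus stood apart as the highest group and TBI thalamus and both cortex groups overlapped in order below it. For Cacna2d2 both thalamic groups stood above both cortical groups. For Cacna2d3, Cacnb3 and Cacnb4 every neighbouring pair of groups overlapped.

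The loci whose levels were most like a member's over the 24 libraries are given here as a description. Cacna1e was closest to Ryr2 (Pearson r = 0.99), which encodes a calcium release channel of the endoplasmic reticulum, and to Nptx1 (r = 0.99). Cacna2d1 was closest to Psd3 (r = 0.99) and to Prkcb, a protein kinase C gene (r = 0.99). Cacna1a was closest to Atp2b2, a plasma membrane calcium pump (r = 0.97), and to Pcnxl2 (r = 0.96). The other closest loci were Prdm11 and Celsr2 for Cacna1b (0.98 each), Adarb2 and a locus named Wbscr17 for Cacna1c (0.96 and 0.97), and Arhgap32 and a locus named Ksr2 for Cacna1d (0.99 each). They were Hcn3 and Fam155b for Cacna2d2 (0.96 and 0.95), Ddx10 and Trim44 for Cacna2d3 (0.92 and 0.91), Rtn4rl2 and Sstr4 for Cacnb3 (0.96 each), and Fbxo45 and Ppm1a for Cacnb4 (0.95 each). Where a member has a large gap between the regions, much of such an r can come from that gap. Cacna2d3 had no called regional difference, so this does not cover it. None of these r values carries a test.

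Other genes of the pathway were read from fixed lists. Beside the counts of every such list, 14.9% of all tested loci were called lower and 14.3% higher in the cortex. In the thalamus 20.9% were called lower and 14.5% higher, and some counts of risers below lie near these shares. On the list of other high-voltage channel subunits, 4 of 11 tested fell in the cortex and 5 of 10 in the thalamus. In both regions 0 rose, and most names on this list are Cacng (gamma) genes. In the interaction 4 of 11 had a lower effect in the thalamus and 0 a higher one, beside 4.54% and 2.72% of all loci. Among the members only Cacna1c was called there, but with this list included a lower effect in the thalamus was not particular to it. The largest called fall in each region was that of Cacng2 (stargazin, mainly an AMPA receptor partner), from 3232 ± 468 to 2647 ± 122 in the cortex and from 3835 ± 255 to 2415 ± 311 in the thalamus (SD, n = 6). Its log2 changes were -0.28 (limma adjusted p = 0.0138) and -0.67 (limma adjusted p = 2.38e-05). Of the 3 T-type, low-voltage pores, 2 were tested, since no named locus matched Cacna1g. Cacna1i fell in the thalamus (log2 -0.31, limma adjusted p = 0.00753), with 0 called in the cortex. The thalamic change of Cacna1h, named after its value was seen, was log2 -0.32 and was not called (limma adjusted p = 0.187). The other fallers of the high-voltage list, named after their values were seen, were Cacnb2 and Cacng7 in both regions. Cacng3 fell in the cortex, and Cacng4 and Cacng5 in the thalamus. Of these, Cacnb2 alone is a beta subunit, and the others belong to the gamma family of Cacng2. The counts of that list are therefore not counts of established channel subunits alone.

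Among channel inhibitors and calcium sensors, 2 of 10 rose and 5 fell in the cortex, and 3 of 11 rose and 6 fell in the thalamus. Stac2, an adaptor that slows inactivation of L-type channels, moved in opposite directions: it fell in the cortex from 4947 ± 578 to 3029 ± 486 (log2 -0.71, limma adjusted p = 0.000191) and rose in the thalamus from 355 ± 74 to 739 ± 39 (log2 1.08, limma adjusted p = 1.35e-05). The difference between these effects was itself called (interaction log2 1.80 ± 0.16 SE, limma adjusted p = 1.55e-07). Rem1, a small GTPase that inhibits these channels, rose in the cortex (log2 0.55, limma adjusted p = 0.0089). Gem, another such GTPase named after its value was seen, rose in both regions, and Rem1 also rose in the thalamus. The relative Rem2 fell in the thalamus (log2 -0.91, limma adjusted p = 4.14e-05).

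Active zone partners, which hold channels at release sites, fell in 8 of 15 in the cortex and in 10 of 15 in the thalamus, where 1 rose. Rims1, a channel tether of the active zone, had the largest cortical fall (log2 -0.48, limma adjusted p = 1.51e-05). In the thalamus Nrxn3, a presynaptic adhesion gene, fell most (log2 -0.61, limma adjusted p = 0.00117) and Unc13b rose (log2 0.29, limma adjusted p = 0.0111). Of the calcium effectors, 8 of 10 fell and 1 rose in the cortex, led by the kinase gene Camk4 (log2 -0.54, limma adjusted p = 5.12e-05) and by a rise of the potassium channel gene Kcnn3 (log2 0.43, limma adjusted p = 0.02). In the thalamus 5 of 10 fell, most of all Kcnn1 (log2 -0.64, limma adjusted p = 7.8e-05), followed by Camk4, Camk2b, Ppp3cb and Ppp3r1, named after their values were seen.

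Among extrusion and buffering genes, 7 of 10 fell in the cortex and 5 of 10 in the thalamus. Pvalb, a calcium buffer of fast-spiking inhibitory neurons, fell most in both regions: log2 -0.51 in the cortex (limma adjusted p = 0.00256) and -1.19 in the thalamus (limma adjusted p = 0.000303). The other thalamic falls, named after their values were seen, were the pumps Atp2b1 and Atp2b2 and the sodium-calcium exchangers Slc8a1 and Slc8a3. The pump gene Atp2b4 rose in the thalamus (log2 0.28, limma adjusted p = 0.0473). Thrombospondins, secreted by astrocytes and known as ligands of Cacna2d1, rose in 3 of 4 in the cortex, led by Thbs1 from 138 ± 14 to 281 ± 130 (log2 0.92, limma adjusted p = 0.00583). The other risers, named after their values were seen, were Thbs2 and Thbs3, the latter on a locus that also carries the name Muc1. In the thalamus 0 of 4 were called, with a median log2 of 0.51 (0.29 to 0.82) beside 0.64 in the cortex, and 0 of 4 differed between the regions in the interaction.

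Neuronal markers fell beside the members. Of 15 fixed markers, 10 were called lower in the cortex (median log2 -0.24) and 12 in the thalamus (median log2 -0.45), and 0 were higher. The shares over all tested loci were 14.9% lower and 14.3% higher in the cortex, and 20.9% lower and 14.5% higher in the thalamus. The summed level of the 15 markers was 345932 to 439156 in TBI and 474237 to 495970 in sham cortex. In the thalamus it was 261792 to 333494 in TBI and 388454 to 454967 in sham rats, with no overlap in either region. Inhibitory neuron markers were called lower in 3 of 6 in the cortex and in 4 of 6 in the thalamus. Microglial markers rose in 11 of 12 in the cortex and in 12 of 12 in the thalamus, with sums of 22633 to 25294 against 16254 to 17189 in cortex and 35231 to 44751 against 17296 to 22160 in thalamus. Astrocyte markers rose in 5 of 10 in each region, and 2 of 10 fell in the cortex. Oligodendrocyte markers rose in 3 of 8 in the cortex and in 1 of 8 in the thalamus. Their precursor markers rose in 3 of 4 and in 1 of 4. Endothelial markers rose in 1 of 7 and in 2 of 7, and mural cell markers in 1 of 3 and in 3 of 3. In these last 4 lists 0 were called lower. No marker of these lists was at 0 in all libraries of a group. In such bulk samples fewer neurons and less RNA per neuron cannot be told apart, and the part of cell composition in the members' changes was not tested.

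Scaling each library to the 15 neuronal markers moved the median log2 change of all loci to 0.32 in the cortex and 0.46 in the thalamus. Among the called loci of that fit 0.924% were lower in the cortex and 1.71% in the thalamus, beside 50.9% and 59.0% under the deposited scaling. Upper quartile scaling gave 48.0% lower in the thalamus. On the neuronal scale 0 members were called lower in either region, and 5 were called higher in each, beside 69.4% (cortex) and 78.2% (thalamus) of all tested loci called higher. Cacna1a stood at 0.02 ± 0.06 (SE) in the cortex and at -0.02 ± 0.08 in the thalamus, and Cacnb4 at -0.20 ± 0.11 and -0.08 ± 0.09. Cacna1e stood at 0.34 ± 0.08 and 0.77 ± 0.18, with limma adjusted p of 0.00152 and 0.00127. The interaction of Cacna1c stayed past the threshold on this scale (log2 -0.39 ± 0.12 SE, limma adjusted p = 0.0495).

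**Figure D5:**
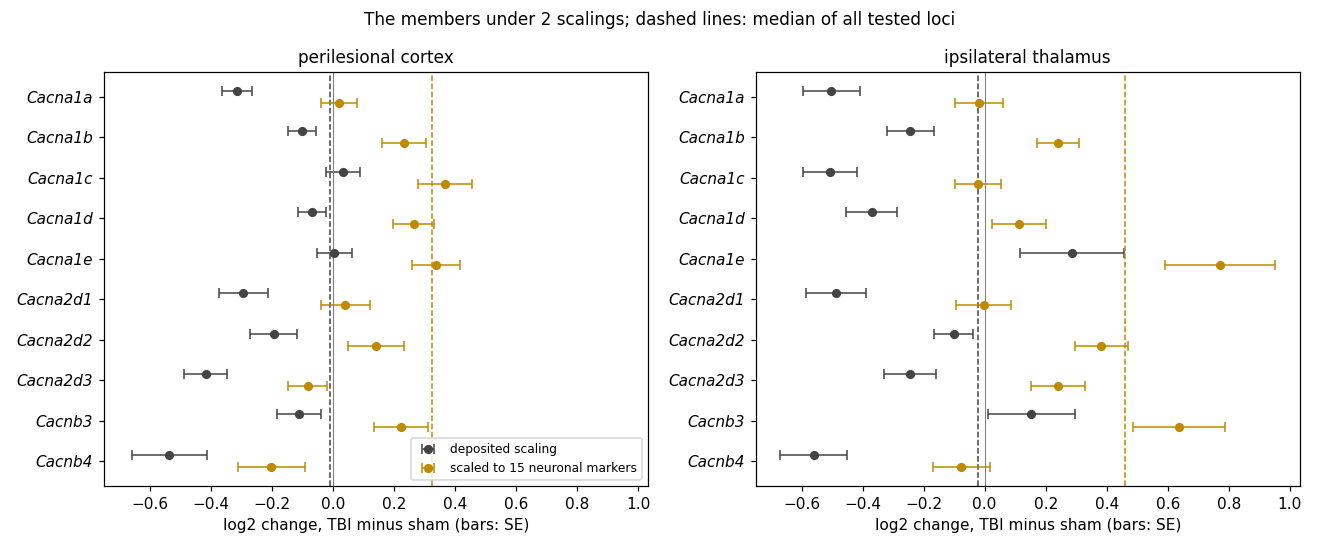
Log2 change (TBI minus sham, SE bars) of the 10 members under the deposited scaling and after scaling to 15 neuronal markers, with dashed lines at the median of all tested loci. Under the neuronal scaling the members move to the right with all loci, whose median lies at 0.32 in the cortex and 0.46 in the thalamus, and Cacna1a stands near 0 in both regions.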

How the data were processed

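Polyadenylated RNA of 24 samples was sequenced from stranded libraries. The authors aligned the reads with TopHat2 2.0.11 and Bowtie2 2.2.2 and assembled loci with Cufflinks 2.2.1, as the submitters' notes and the methods give it. The genome was RGSC3.4 and the guiding annotation Rnor_5.0, while the position table names no build. The deposited values are a signal of fragments per locus that the authors had divided by a size factor. Low values were whole multiples of 1 step per library for 100% of values (tolerance 0.1 fragment), which gave the depth. In sham thalamus 55 the step (0.989) lies so near 1 that this says little there, and the tool that wrote the values is not given in the sources used here. Counting error is small at this depth, and the spread between rats sets the precision. Loci with no gene name (37.1% of loci, 1.90% to 2.23% of counts) stayed out.

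The members and gene lists were chosen with earlier results of these data known. Named genes are the 10 members, the largest called rise and fall of each pathway list per region, and the 2 loci most like each member. Genes outside this rule are marked in the text as named after their values were seen. Some members of a pathway list are counted with it and not reported singly here. Groups were taken from the sample labels. limma 3.58.1 in R 4.3.3 (trended eBayes) was fitted on log2(normalized count + 1) for loci averaging at least 10, with Benjamini-Hochberg adjustment over all of them. Each region was fitted on its 12 libraries, and the interaction and region contrasts on all 24 without a block. Both libraries of a rat carry its number. Their deviations from the group means correlated with a median of 0.187 (0.00393 to 0.569; 10 of 12 over 0.1), so the rat was used as a block in an alternative. edgeR 4.0.16 and DESeq2 1.42.0 ran on the recovered fragments. Other alternatives changed the scaling, filter, pseudocount, threshold or libraries. On simulated cortex data (15391 loci) limma called 99.0% of loci set at a log2 change of 1 and 89% at 0.6. Both sizes are larger than every called TBI change of a member, and all simulated loci had the same dispersion. These shares therefore do not give the power for the members' TBI changes. Promoters came from RefSeq GRCr8. Tables and figures were made in Python 3.11.15 (pandas 2.3.3, numpy 2.4.6, matplotlib 3.10.9).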

Additional observations from a re-analysis of the deposited data

Results flagged for a closer look

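The TBI effect on Cacna1c differed between the regions, by log2 -0.54 (limma interaction, adjusted p = 0.00305), with 6 of 6 TBI rats below every sham rat in the thalamus and overlapping groups in the cortex. Without the 6 libraries high in choroid plexus it was log2 -0.46 (limma adjusted p = 0.0619). Over 56 groups of 6 values (members and ratios), 4 single libraries lay far from the other 5, where chance gives about 1 in 20. These were Cacna1d in TBI thalamus replicate 56 (1110 normalized counts, the others 1310 to 1411), Cacna1e in TBI cortex replicate 45 (13937, the others 12787 to 13084), and Cacna2d2 and Cacnb3 in TBI cortex replicate 24 (2009, the others 1398 to 1586, and 9262, the others 7371 to 7892). Causes were not tested.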

How the results depend on the processing

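Of 1710 repeats of a member's change under another setting, 1612 kept direction and call, 50 lost the call, 15 gained it and 33 turned sign. Many of these repeats could hardly change, since filters and pseudocounts leave the log2 values of the members nearly as they were. Leaving out a library of 1 condition cannot move the log2 difference between regions in the other. Leaving out TBI rat 45 repeats a single leave-out within each region. The tally therefore does not measure stability. The count of members whose TBI effect differed between regions, 1 by limma without a block, was 2 with TMM scaling, with the rat as replicate block, and with edgeR and DESeq2, both chosen after seeing the data, and was between 1 and 2 on leaving out 1 library. The second was Cacna1d, and the block changed no other call. Without the 6 libraries high in choroid plexus (sum over 10000, chosen after seeing the data) it was 0. Requiring a 1.5-fold change left 0 members in the cortex, 0 in the thalamus and 0 in the interaction. Scaling to neuronal markers called 5 members in the cortex and 5 in the thalamus, all higher, as were 69.4% and 78.2% of all loci. Under it the log2 changes that turned sign were, in the cortex, 0.0198 (Cacna1a), 0.23 (Cacna1b), 0.27 (Cacna1d), 0.0411 (Cacna2d1), 0.14 (Cacna2d2) and 0.22 (Cacnb3), in the thalamus 0.24 (Cacna1b), 0.11 (Cacna1d), 0.38 (Cacna2d2) and 0.24 (Cacna2d3), in the interaction 0.00738 (Cacna1b) and 0.12 (Cacnb4), and between regions in sham rats 0.0531 (Cacna2d3). The cause was not tested. Signs of values near 0 also turned: the Cacnb4 interaction was 0.00104 with upper quartile scaling, 0.000818 without the libraries high in choroid plexus and -0.134 to 0.0552 over fits leaving out 1 library, and Cacna1e in the cortex was -0.00115 by edgeR, -0.0143 without both libraries of TBI rat 45, -0.0542 without the libraries high in choroid plexus and -0.0368 to 0.0481 over such fits. Cacna1c in the cortex ranged from -0.000397 to 0.063 and was -0.0251 without the libraries high in choroid plexus. The ratio of Cacna2d1 to Cacna2d2 in the cortex (TBI minus sham) ranged from -0.168 to 0.0395, positive without TBI cortex replicate 24. The thalamic Cacna2d3 call was also lost with upper quartile scaling (adjusted p = 0.0945), no filter (0.0501) and DESeq2 (0.0619). The cortical Cacna2d2 change was called with all 24 libraries in 1 fit (0.0477).

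Over all loci, 4531 were called in the cortex, 5516 in the thalamus and 1138 in the interaction. Leaving out the libraries high in choroid plexus gave 2162, 4241 and 422, a threshold of 0.01 2436, 3429 and 404, a 1.5-fold change 1008, 1330 and 435, and neuronal scaling 10824 and 12496. The share called lower in the interaction was 62.5% and 21.9% with neuronal scaling. For thalamus against cortex it was 45.4% and 31.9% in sham rats and 46.0% and 20.9% in TBI rats. The 1.5-fold change left 4474 and 4367 of 9631 and 9499 loci there. Positions are those of the files, and no transcript lengths were used, so levels were not compared between genes.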
